A study of Mus musculus with 4 samples.

Results

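Neurod1, Insm1, the neurogenin genes Neurog1, Neurog2 and Neurog3, the Notch ligand gene Dll1 and the Notch effector genes Hes1 and Hes5 were followed in F9 cells after knockdown of Phf19. These 8 genes were taken by gene symbol from the platform annotation, which listed 13 probe sets for them among 45037 tested (8 of 18193 genes with a probe set of their own). The genes were chosen knowing that Neurod1 and Insm1 were higher after the knockdown, so the values of all 8 in this contrast are given as a description and carry no p-value of their own. The study measured total RNA on 4 Affymetrix mouse 430 2.0 arrays. 2 arrays came from F9 cells stably carrying a pLKO.1 lentiviral shRNA against Phf19 (shPhf19), and 2 from F9 cells stably carrying the pLKO.1 vector control (shVector). F9 is a mouse embryonal carcinoma line, a tumour-derived relative of undifferentiated embryonic cells. All 4 cell samples had been infected and selected with puromycin. The labels call the arrays of each group biological replicates. The sources used here give neither the hairpin sequences and their number nor whether replicates were separate infections, so errors measure the spread between these arrays, which may be partly technical.

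Neurogenins and NeuroD1 are basic helix-loop-helix (bHLH) transcription factors that pair with E proteins, bind E-box sequences and drive cells into neuronal or endocrine differentiation. In mouse pancreas Neurog3 acts upstream of both Neurod1 and Insm1. Insm1 is a zinc finger repressor of neural progenitors and endocrine cells that recruits the demethylase Kdm1a and its partner Rcor1. A cell with high proneural activity displays Dll1, which activates Notch on its neighbours. Cleaved Notch then joins the DNA-binding protein Rbpj and switches on Hes1 and Hes5, repressors that keep proneural genes low. Phf19 is a Polycomb-like partner of the histone methyltransferase complex PRC2, and genes of neural fate such as these are known Polycomb targets in mouse embryonic stem cells.

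The sequences before the start sites were searched for the motifs of this circuit's factors. RefSeq sequences (GRCm38.p6) were used for 6 of the 8 genes, with 7 start sites because Dll1 has an alternative start. Those of Insm1 and Hes1 were not analysed here. In the 250 bases before each, both strands were read for the E-box CANNTG, the motif of bHLH factors, and for TGGGAA, the core motif of Rbpj. No match of one motif overlapped a match of the other. The windows of Neurod1, Neurog3, Dll1 and Hes5 are shown because they hold these motifs for the bHLH gene with called probe sets, for its known activator, for the ligand and for the classical Notch effector. Capitals mark E-boxes in the Neurod1, Neurog3 and Dll1 windows and the Rbpj core in the Hes5 window.
Neurod1, chr2:79456637-79456886, minus strand: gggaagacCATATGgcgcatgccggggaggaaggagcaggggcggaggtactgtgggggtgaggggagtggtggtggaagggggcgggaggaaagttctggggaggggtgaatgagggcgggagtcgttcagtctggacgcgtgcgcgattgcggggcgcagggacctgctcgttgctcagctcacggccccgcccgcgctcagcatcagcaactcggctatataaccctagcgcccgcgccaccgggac
Neurog3, chr10:62132840-62133089, plus strand: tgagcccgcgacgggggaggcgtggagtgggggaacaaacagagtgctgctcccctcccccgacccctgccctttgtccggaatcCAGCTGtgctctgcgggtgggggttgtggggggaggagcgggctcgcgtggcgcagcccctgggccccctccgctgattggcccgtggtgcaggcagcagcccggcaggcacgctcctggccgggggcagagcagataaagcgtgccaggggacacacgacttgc
Dll1, chr17:15376933-15377182, minus strand: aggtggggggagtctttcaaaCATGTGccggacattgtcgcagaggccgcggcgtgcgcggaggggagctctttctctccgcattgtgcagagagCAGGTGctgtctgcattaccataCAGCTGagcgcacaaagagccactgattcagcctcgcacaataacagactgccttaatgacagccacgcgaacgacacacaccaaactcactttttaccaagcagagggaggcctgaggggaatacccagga
Hes5, chr4:154960673-154960922, plus strand: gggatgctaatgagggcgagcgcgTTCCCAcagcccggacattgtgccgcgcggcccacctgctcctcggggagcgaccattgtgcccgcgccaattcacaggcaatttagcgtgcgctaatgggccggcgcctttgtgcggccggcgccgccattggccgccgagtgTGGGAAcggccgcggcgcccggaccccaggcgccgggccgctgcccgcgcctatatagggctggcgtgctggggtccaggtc

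Neurod1 had 1 E-box in this window, starting 242 bases before the start site, and Neurog3 had 1, starting 165 bases before it. The Dll1 window shown had 3, at 229, 155 and 132 bases before the start, and the window of its other start had 1. Hes5 had 1 E-box and 2 copies of the Rbpj core in opposite orientations, at 226 and 82 bases before the start. The windows of Neurog1 and Neurog2 held neither motif, and no other window of these genes held the Rbpj core. Of 32851 RefSeq windows of the same length, 66.2% held an E-box, 12.2% held at least 3, 21.6% held the Rbpj core and 2.77% held at least 2 copies of it. The E-boxes of Neurod1 and Neurog3 are thus common features of such windows. All 7 windows were rich in G and C (56.0% to 71.6%, against a median of 52.4% over all windows) and held 8 to 32 CpG dinucleotides, against a median of 6. Hes5 had the most CpGs, a number reached by 4.58% of all windows, and Neurog2 the fewest, a number reached by 43.0%. The numbers of Neurog1, Neurod1 and Neurog3 were reached by 6.78%, 14.8% and 21.7% of all windows. For Dll1 this share was 31.5% for the window shown and 16.3% for the other. These matches are letters in a window and say nothing of whether a factor was bound in F9 cells.

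Values are the deposited log2 signals of single probe sets, and the level of a probe set cannot be set against that of another. The array medians lay between 5.75 and 5.77. Groups were compared as shPhf19 minus shVector in a limma fit over all probe sets. A probe set was called when its Benjamini-Hochberg adjusted p was under 0.05. Of the 2 probe sets of Phf19, 1 showed less signal in shPhf19 cells (1427920_at, -0.98 ± 0.10, SE, limma adjusted p = 0.0108), while the other, 1431857_at, was at -0.06 ± 0.12 (adjusted p = 0.928). With shPhf19 replicate 1 or 2 or shVector replicate 1 or 2 left out, limma called 0 probe sets, so every call given here rests on all 4 arrays. Arrays correlated over probe sets at 0.998 within shPhf19, 0.997 within shVector and 0.996 to 0.997 between groups.

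Of the 13 probe sets, 4 were called higher in shPhf19 cells, none lower, and 9 were not called. The 4 were both probe sets of Neurod1 and both of Insm1. Over all probe sets 1.41% were called, 0.83% as higher and 0.582% as lower. Because the genes were chosen on this contrast, nothing is read from the count or from the median difference. That median was 0.14 on the log2 scale for the 13, against -0.0050 over all probe sets. In bulk RNA, a change in the share of cells that express a gene cannot be told apart from a change in RNA per cell.

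**Figure D1:**
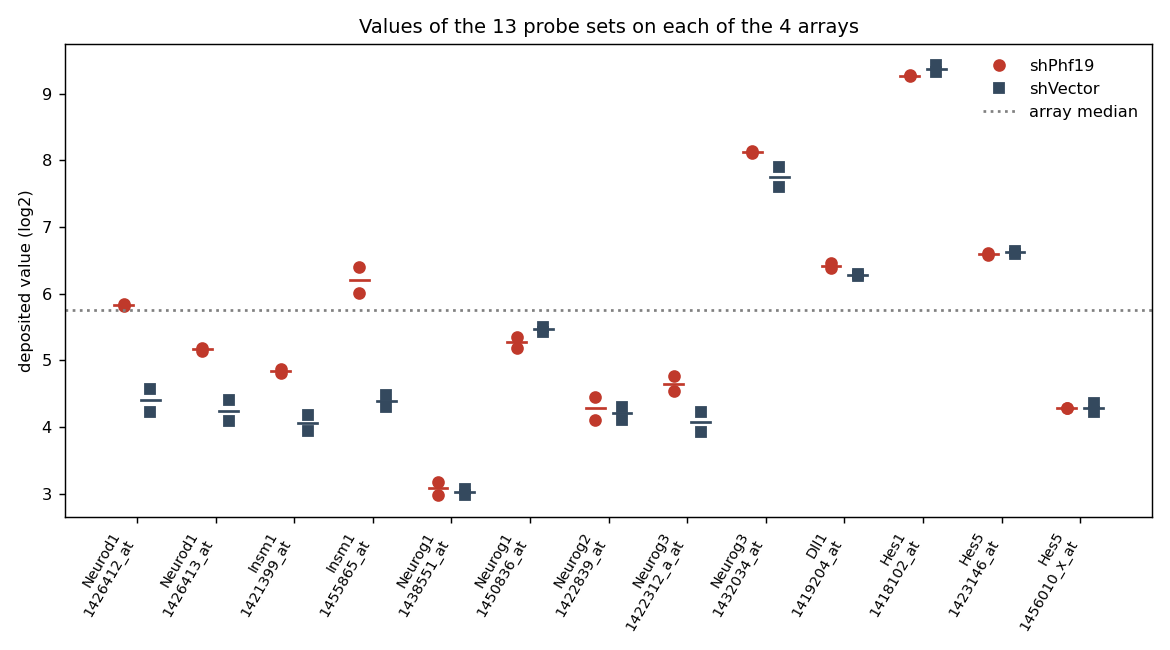
Deposited log2 values (vertical axis) of the 13 probe sets (horizontal axis) on each array, with shPhf19 as red circles and shVector as blue squares. Short bars are means of 2 arrays and the dotted line is the array median. Neurod1 (1426412_at) and Insm1 (1455865_at) lay above the array median in both shPhf19 arrays and below it in both shVector arrays, while the 2 groups of Hes1, Hes5 and Dll1 lay close together.

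Neurod1, which drives late steps of neuronal and endocrine differentiation, gave a higher signal in shPhf19 cells with each of its probe sets. Probe set 1426412_at had log2 values of 5.82 and 5.85 on the shPhf19 arrays, against 4.22 and 4.58 on the shVector arrays. The groups did not overlap and were separated by 1.24, several times the distance between either pair of replicates. The difference was 1.43 ± 0.13 (SE), or 2.70-fold with a 95% interval of 2.17 to 3.37. Among all probe sets of an array it stood at percentiles 50.9 and 51.3 in shPhf19 and at percentiles 25.4 and 32.1 in shVector. A signal this low on an array may be partly background, and no detection calls were available. Probe set 1426413_at, listed with the same sequence record, had values of 5.15 and 5.18 in shPhf19, against 4.09 and 4.41 in shVector. Its difference was smaller, 0.92 ± 0.13 (SE), or 1.89-fold (95% interval 1.53 to 2.33), and again the groups did not overlap. In both probe sets shVector replicate 1 was the lowest array, and the shPhf19 arrays lay closer together (SD 0.02 and 0.03) than the shVector arrays (SD 0.25 and 0.23).

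Insm1, the zinc finger repressor, had the largest difference of the 8 genes. Probe set 1455865_at had log2 values of 6.40 and 6.01 in shPhf19, against 4.30 and 4.48 in shVector. The lower shPhf19 array was still 1.53 above the higher shVector array. The difference was 1.81 ± 0.15 (SE), or 3.52-fold (95% interval 2.74 to 4.51). Among all probe sets the signal stood at percentiles 58.0 and 53.3 in shPhf19 and at percentiles 26.6 and 30.4 in shVector. The second probe set, 1421399_at, had values of 4.81 and 4.87 in shPhf19, against 4.18 and 3.95 in shVector. The groups were separate here too, but the difference was only 0.77 ± 0.11 (SE), or 1.71-fold (95% interval 1.42 to 2.06). The intervals of the Insm1 probe sets did not overlap, so they gave different sizes for the same direction. The dimmer 1421399_at stayed below the array median in all 4 arrays. Which part of each transcript a probe set covers was not analysed here.

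With 50 added to the signals on the linear scale, which compresses dim probe sets, the differences were 0.59 and 0.31 for Neurod1 and 0.80 and 0.23 for Insm1, each with the larger value from 1426412_at and 1455865_at. The direction of these 4 differences held without any 1 array, as it had to with groups that did not overlap, but their calls did not hold. Without each array in turn, Neurod1 ranged from 1.26 to 1.61 (1426412_at) and from 0.76 to 1.07 (1426413_at). Insm1 ranged from 1.62 to 2.01 (1455865_at) and from 0.66 to 0.89 (1421399_at). The smallest differences of Neurod1 were those without shVector replicate 1, and the smallest of Insm1 were without shPhf19 replicate 1 (1455865_at) and without shVector replicate 2 (1421399_at). With all arrays 6 of the 13 had an unadjusted p under 0.05 in the limma fit, as did 5708 of all 45037 probe sets. The genes were chosen on this contrast, so nothing is read from that count.

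**Figure D2:**
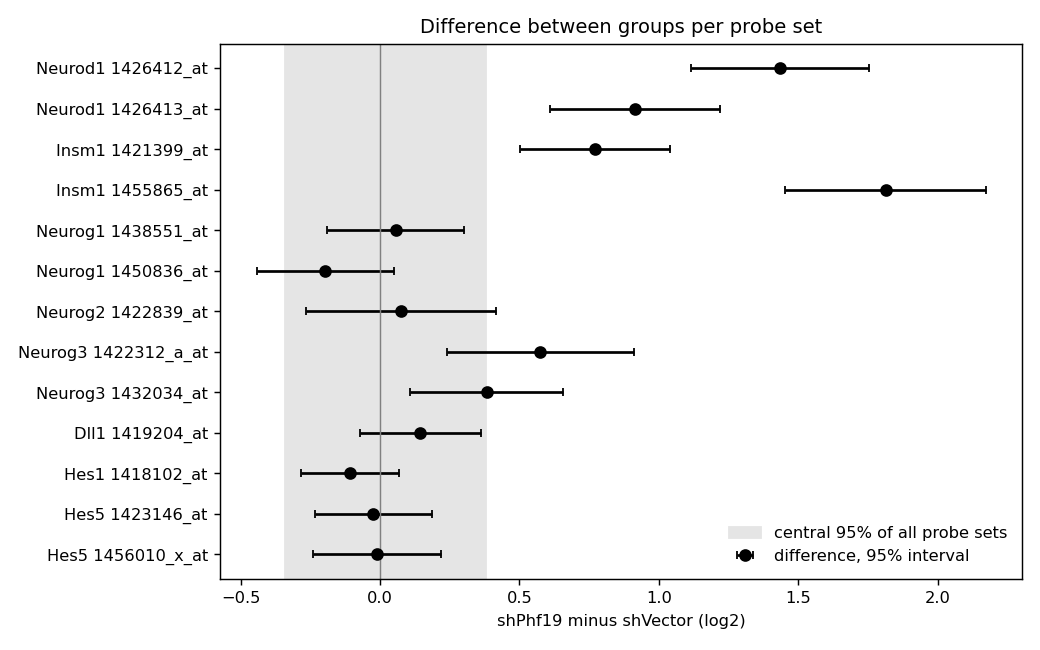
Difference between shPhf19 and shVector (horizontal axis, log2) for each probe set (vertical axis), with limma's 95% interval as bars. The grey band holds the central 95% of all probe sets, from -0.34 to 0.38. The 4 probe sets of Neurod1 and Insm1 had intervals wholly above the band. Both genes were known to be higher in this contrast when they were chosen, so nothing is read from that position. The intervals of Hes1 and Hes5 lay within the band.

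The neurogenins, which stand upstream of Neurod1 in neural and endocrine progenitors, had no called probe set. Neurog3 had the largest differences among them. Its probe set 1432034_at had log2 values of 8.15 and 8.12 in shPhf19, against 7.60 and 7.90 in shVector, a difference of 0.38 ± 0.11 (SE, 95% interval 0.11 to 0.66). Its other probe set, 1422312_a_at, had 4.77 and 4.53 in shPhf19, against 3.92 and 4.23 in shVector, a difference of 0.58 ± 0.14 (SE, 95% interval 0.24 to 0.91). Neither was called, although the groups did not overlap in either and both intervals lay above 0. The 2 probe sets stood at very different places on the arrays, the first between percentiles 70.0 and 74.5 and the second between percentiles 20.0 and 35.0. The first is listed with a different sequence record than the second, and whether it reads the same transcript was not analysed here. Without shVector replicate 1 the differences were smallest, at 0.23 and 0.42.

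Neurog1 and Neurog2, the neurogenins of cranial sensory, spinal and cortical progenitors, differed little. For Neurog1, probe set 1450836_at had log2 values of 5.19 and 5.35 in shPhf19, against 5.43 and 5.50 in shVector (difference -0.20 ± 0.10, SE). The groups did not overlap, and the 95% interval ran from -0.44 to 0.05. The other Neurog1 probe set, 1438551_at, stood between percentiles 3.74 and 7.02 on every array and differed by 0.06 ± 0.10. Neurog2 (1422839_at) had 4.10 and 4.46 in shPhf19, against 4.30 and 4.11 in shVector, a difference of 0.07 ± 0.14 with overlapping groups. Its 95% interval ran from -0.27 to 0.42, which limits the signal of this probe set and not the change of the transcript. The probe set stood between percentiles 23.9 and 29.8. At so low a signal, an absent transcript and a weakly expressed one look alike on these arrays.

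None of the probe sets of the Notch ligand and effector genes was called. Dll1 (1419204_at) had log2 values of 6.46 and 6.38 in shPhf19, against 6.26 and 6.29 in shVector. The groups were separate by 0.09, and the difference was 0.14 ± 0.09 (SE, 95% interval -0.07 to 0.36). Hes1 (1418102_at), a repressor of proneural genes that many cell types express, had 9.26 and 9.28 in shPhf19, against 9.33 and 9.42 in shVector. Here the shPhf19 arrays were both lower, by a difference of -0.11 ± 0.07 (SE, 95% interval -0.28 to 0.07). Hes5, the effector most tied to neural progenitors, had 6.61 and 6.57 in shPhf19, against 6.64 and 6.60 in shVector by 1423146_at, with overlapping groups and a difference of -0.02 ± 0.09. Its other probe set, 1456010_x_at, whose suffix marks probes that can also hybridise to related transcripts, differed by -0.01 ± 0.10. The intervals of the 2 Hes5 probe sets ran from -0.23 to 0.19 and from -0.24 to 0.22. Of the 13 probe sets, 9 had groups that did not overlap, 7 of them higher in shPhf19 and 2 lower. Of all probe sets 40.5% had such groups, 19.4% with shPhf19 higher and 21% with shPhf19 lower.

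Other genes of the circuit were read from 10 lists with 111 genes, 104 of which had a probe set, each represented by its brightest one. In the same fit 8 of the 104 passed the threshold, against 2.02% of all genes (1.15% higher and 0.863% lower). None of these calls held with any 1 array left out. With all arrays 29 of the 104 had an unadjusted p under 0.05, as did 5708 of all 45037 probe sets. The lists were chosen with earlier results of these data known, so nothing is read from this count or from those of the lists below. None of the 4 Notch receptor genes passed (median difference -0.11, 2 at an unadjusted p under 0.05). Notch3 was at 0.58 ± 0.12 (SE, limma adjusted p = 0.0884), and Notch4 at -0.33 ± 0.11 (adjusted p = 0.288). None of the 4 other ligand genes passed (median -0.02, 1 at an unadjusted p under 0.05), with Dll3, a ligand that damps Notch signalling within the cell, at -0.44 ± 0.10 (adjusted p = 0.137) and Jag2 at 0.15 ± 0.09 (adjusted p = 0.572). The medians compare with -0.0028 over all genes.

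Among 18 genes of ligand and receptor processing, 1 fell, none rose and 17 did not pass (median 0.04). The gene that fell was Aph1a, a subunit of gamma-secretase, the protease that releases the intracellular part of Notch. Probe set 1424980_s_at had log2 values of 9.70 and 9.98 in shPhf19, against 10.72 and 10.68 in shVector, a difference of -0.86 ± 0.10 (SE, adjusted p = 0.0167), or 1.81-fold lower. Its suffix marks probes shared between transcripts, and the other Aph1a probe sets were at -0.40 ± 0.10 and -0.34 ± 0.08 without passing (adjusted p = 0.149 and 0.143). None of 12 genes of the nuclear Notch complex and its corepressors passed (median 0.08, 2 at an unadjusted p under 0.05). Rbpj itself was at 0.23 ± 0.06 (adjusted p = 0.142) and the corepressor gene Tle4 at 0.27 ± 0.08 (adjusted p = 0.239). Among 8 further Hes, Hey and Nrarp genes, a family that includes direct targets of Notch, none passed (median -0.05, 1 at an unadjusted p under 0.05). Nrarp, a feedback inhibitor of Notch, was at -0.36 ± 0.09 (adjusted p = 0.145) and Hey1 at 0.16 ± 0.10 (adjusted p = 0.625).

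**Figure D3:**
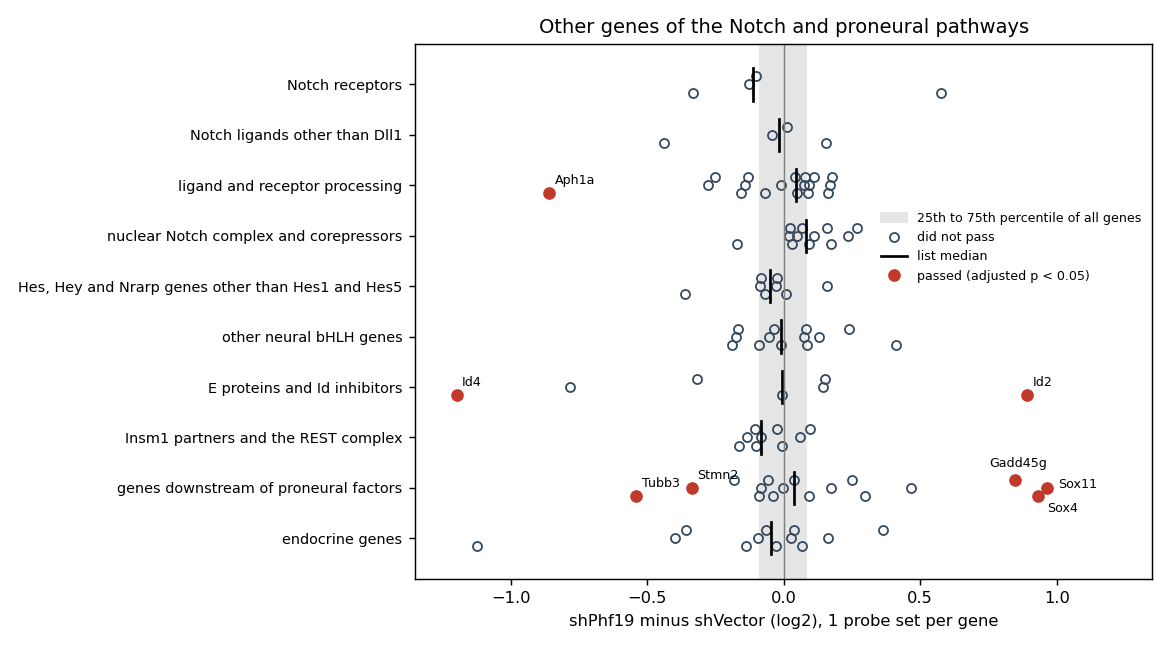
Difference between shPhf19 and shVector (horizontal axis, log2) for each measured gene of 10 lists (vertical axis). Filled red circles passed the threshold, open circles did not, black bars are list medians and the grey band runs from the 25th to the 75th percentile of all genes, from -0.09 to 0.08. The 8 named genes that passed lie in 3 lists, and the medians of all 10 lists lie between -0.11 and 0.08.

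The dimerisation partners of the bHLH factors held 2 called genes, both for Id proteins. Among 7 genes for E proteins and for Id proteins, which sequester E proteins, 1 rose, 1 fell and 5 did not pass (median -0.0071). Id2 had log2 values of 10.65 and 10.63 in shPhf19, against 9.69 and 9.81 in shVector by 1435176_a_at. It rose 1.85-fold (0.89 ± 0.07, SE, adjusted p = 0.00775), and 1 of its other 2 probe sets also passed. Id4 had 7.64 and 7.50 in shPhf19, against 8.59 and 8.95 in shVector by 1423259_at. It fell 2.29-fold (-1.20 ± 0.13, SE, adjusted p = 0.0153), and its other 2 probe sets were called lower too. Id3, named after its value was seen, was at -0.78 ± 0.18 (adjusted p = 0.125). None of the 13 other neural bHLH genes measured passed (median -0.01, 2 at an unadjusted p under 0.05), with Nhlh2 at 0.41 ± 0.10 (adjusted p = 0.143) and Olig2 at 0.24 ± 0.09 (adjusted p = 0.326). Of these 13, 7 had mean signals in the lowest 25% of all probe sets.

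None of 9 genes for Insm1 partners and the REST repressor complex passed, and none had an unadjusted p under 0.05 (median -0.08). Rcor2 was at -0.16 ± 0.08 (adjusted p = 0.504) and Ctbp1 at -0.13 ± 0.06 (adjusted p = 0.457). The direct cofactor genes of Insm1, picked afterwards, were at -0.0068 ± 0.05 for Kdm1a and 0.10 ± 0.07 for Rcor1.

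Genes known to act downstream of proneural factors in neural tissue split in direction. Of 17 measured, 3 rose, 2 fell and 12 did not pass (median 0.04). Sox11 and Sox4, transcription factors of early neurons that many other embryonic cells also express, rose 1.95-fold (0.97 ± 0.07, SE, adjusted p = 0.00693) and 1.91-fold (0.93 ± 0.09, adjusted p = 0.0100). For Sox11 4 of the other 5 probe sets passed as higher, and for Sox4 1 of the other 7. Gadd45g, a growth arrest gene downstream of neurogenins in frog embryos, had log2 values of 6.74 and 6.62 in shPhf19, against 5.76 and 5.90 in shVector. It rose 1.80-fold (0.85 ± 0.10, SE, adjusted p = 0.0181). The 2 that fell were Tubb3 and Stmn2. Tubb3, neuronal beta-tubulin, had 8.63 and 8.75 in shPhf19, against 9.29 and 9.17 in shVector, and fell 1.45-fold (-0.54 ± 0.08, SE, adjusted p = 0.0422). Stmn2, a regulator of microtubules in growing axons, fell 1.26-fold (-0.34 ± 0.05, SE, adjusted p = 0.0393), and its other probe set passed in the same direction. Without an intensity trend in the variance neither was called (adjusted p = 0.0798 for Tubb3 and 0.166 for Stmn2). None of 12 endocrine genes passed (median -0.05, 4 at an unadjusted p under 0.05). Of these 12, 8 had mean signals below the median probe set, 3 of them in the lowest 25%. Pax6, which also marks neural progenitors, was at -1.12 ± 0.22 by 1419271_at (adjusted p = 0.0805). That probe set passed with quantile normalization (adjusted p = 0.043) and with the crossed replicate block added after seeing the data (adjusted p = 0.0243). The other Pax6 probe sets were at -0.40, -0.18, -0.17 and -0.03 without passing. The last, 1456342_at, had log2 values of 6.43 and 6.30 in shPhf19, against 6.32 and 6.47 in shVector. The prohormone convertase gene Pcsk1 was at 0.36 ± 0.10 (adjusted p = 0.172).

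Markers of neurons, neural progenitors and endocrine cells, in which Neurod1 and Insm1 are usually found, were read from the same fit. Markers of primitive endoderm, fibroblasts and embryonal carcinoma cells were read too. Of 8 markers of post-mitotic neurons, 2 fell (Tubb3 and Stmn2), none rose and 4 had an unadjusted p under 0.05. Both calls were lost without a variance trend. In shVector cells Tubb3 (9.29 and 9.17) and Stmn2 (11.97 and 11.91 by 1423281_at) already stood well above the array median. The mean log2 level of the 8 per array was 6.86 and 6.96 in shPhf19, against 7.07 and 7.05 in shVector. Snap25 lay in the lowest 25% of all probe sets. Of 7 endocrine markers none passed, with 2 at an unadjusted p under 0.05, mean levels of 5.19 and 5.28 in shPhf19 against 5.32 and 5.15 in shVector, and Nkx2-2 in the lowest 25%. Of 6 neural progenitor markers 1 rose, Sox1 (2.16-fold by 1438729_at, adjusted p = 0.00693; its other probe set was at -0.15 ± 0.10). Pax6, at -1.12 by 1419271_at but from -0.40 to -0.03 by its other probe sets, is on this list too. Of the 6, 3 had an unadjusted p under 0.05. Mean levels of the 6 were 6.31 and 6.19 in shPhf19 against 6.21 and 6.18 in shVector, with Fabp7 in the lowest 25%. Of 6 primitive endoderm markers 4 had an unadjusted p under 0.05. By the adjusted p 2 of them rose, Dab2 (2.64-fold, adjusted p = 0.00863) and Gata6 (2.28-fold, adjusted p = 0.0149), and 4 of the 6 did not pass. The other probe sets of these genes did not pass either, at 0.44, 0.23 and 0.09 for Dab2 and at 0.08 and 0.0018 for Gata6. The mean level of the 6 markers was 6.39 and 6.31 in shPhf19 against 5.76 and 5.85 in shVector. None of these 6 lay in the lowest 25%, and their part in the Neurod1 and Insm1 differences was not tested. None of 5 fibroblast markers passed (2 at an unadjusted p under 0.05), with mean levels of 5.04 and 5.10 in shPhf19 against 5.20 and 5.22 in shVector and Postn in the lowest 25%. None of 10 embryonal carcinoma markers passed (4 at an unadjusted p under 0.05). All 10 had mean signals above the median probe set, and their mean levels were 12.51 and 12.51 in shPhf19 and 12.44 and 12.53 in shVector.

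Other genes followed Neurod1 and Insm1 closely over the 4 arrays. Likeness was measured as the Euclidean distance between values centred on each probe set's own mean, over 4 arrays that fall in 2 groups, so it mostly matches the size of the difference. Nearest to Neurod1 by 1426412_at were Efnb2 (distance 0.101), Car3 (0.121) and Cubn (0.173), against 0.519 for the other Neurod1 probe set. Efnb2 encodes the ligand ephrin-B2, Car3 a carbonic anhydrase and Cubn the endocytic receptor cubilin. Nearest to Neurod1 by 1426413_at were Efs (0.0265), Dnmt3l (0.0746) and Spink1 (0.0837). Nearest to Insm1 by 1455865_at were the transporter gene Slc39a8 (0.351), the Wnt pathway factor gene Lef1 (0.379) and Zfp365 (0.394), against 1.13 for the other Insm1 probe set. Nearest to Insm1 by 1421399_at were Ptp4a3 (0.0447), Fstl1 (0.0567) and Mlkl (0.0623). The 4 sets of neighbours shared no gene.

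**Figure D4:**
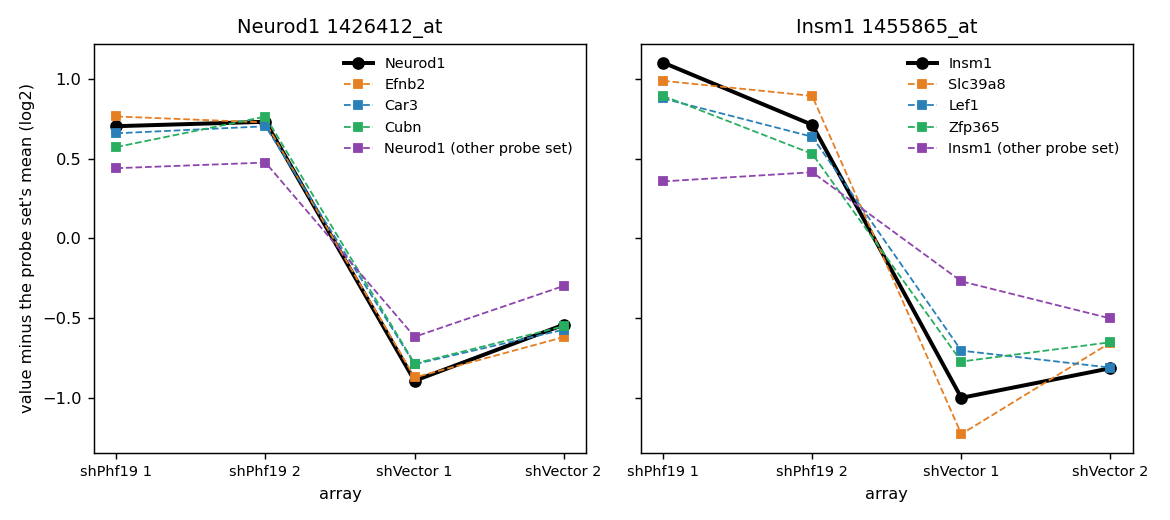
Log2 values minus each probe set's mean (vertical axis) on the 4 arrays (horizontal axis) for Neurod1 and Insm1 in black, the 3 nearest genes and the gene's other probe set. Lines only join the values of 1 probe set. The neighbours of Neurod1 were picked as the 3 nearest genes and lay at distances of 0.101 to 0.173. The other Neurod1 probe set lay at 0.519.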

How the data were processed

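Gene expression was measured with 1 array per sample in shPhf19 (2 arrays) and shVector (2 arrays) F9 cells. The deposited values, 1 per probe set and array, were taken as log2 signals because they ran from 2.31 to 14.7. The near-equal array medians show that the deposited values were already normalized between arrays. The sources used here do not say how probes were summarised or background was corrected. Such summaries can compress changes of dim probe sets. Of 45101 probe sets, 64 Affymetrix controls were left out. GEO's platform annotation gave 34945 probe sets 1 gene symbol, 932 several and 9160 none. Each gene was represented by the brightest probe set, on average over the 4 arrays, among those listed with that gene alone.

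The groups were fitted in R 4.3.3 with limma 3.58.1 (lmFit, eBayes with an intensity trend), two-sided, adjusted by Benjamini-Hochberg over all 45037 probe sets at 0.05. The fit had 2 residual degrees of freedom (median 6.51 after moderation). SE is limma's moderated standard error and SD is over 2 arrays. The number of arrays limits the precision. An exact permutation of 2 against 2 arrays cannot go below p = 0.333 and was not used. The members and lists were chosen with earlier results of these data known. Besides the 8 members, genes were named by rule: per list up to 4 passing genes per direction or, where none passed, the 2 with the smallest p, and the 3 nearest neighbours of each called probe set. Arrays of the same number did not deviate together (correlation of deviations -0.197), so the numbers were not taken as pairs. Alternatives were quantile normalization, median centring, no variance trend, filters on dim probe sets, an offset of 50 on the linear scale, a replicate block, the mean of a gene's probe sets, and each array left out.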

Additional observations from a re-analysis of the deposited data

How the results depend on the processing

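With any 1 array left out, limma called 0 probe sets as higher, 0 as lower, 0 of the 13 and 0 of the 104 list genes, while 2539 to 6942 probe sets had an unadjusted p under 0.05 (5708 with all arrays). Such a fit takes its spread from the other group alone. With the replicate block, for which the numbers gave no support (correlation -0.197), 0 probe sets were called in either direction, 0 of the 13 and 0 of the 104, with 3890 at an unadjusted p under 0.05. A block with crossed numbers, chosen after seeing the data, called 2 of the 13 (Neurod1 by 1426412_at and Insm1 by 1455865_at). Without a variance trend 229 probe sets were higher and 151 lower, against 374 and 262, the same 4 of the 13 were called, and 6 of the 104 list genes against 8 (Tubb3 and Stmn2 were lost). Quantile normalization and the crossed block each called 9 of the 104, Pax6 being the added gene. When the lowest 50% by mean signal were dropped, 0 of the 13 were called because 9 of them, all 4 probe sets of Neurod1 and Insm1 included, were among those dropped (1 of the remaining 4 had an unadjusted p under 0.05). With 50 added on the linear scale the 4 were called again. Differences near 0 turned sign: Hes5 by 1456010_x_at was at 0.0028 with quantile normalization and ranged from -0.073 to 0.053 without 1 array, Neurog1 by 1438551_at from -0.040 to 0.15 and Neurog2 from -0.10 to 0.25. The cause of these changes was not tested. The 4 called differences kept their direction under every alternative that included them, but most of these could not have turned it. With groups that did not overlap, leaving out 1 array cannot change a sign. The blocks, the fit without a variance trend and the filters left the differences themselves as they were.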
